A study of Mus musculus with 6 samples.

Results

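Class I histocompatibility genes encode the cell-surface molecules that show peptides from inside a cell to T cells and natural killer cells, and the genes described with them encode the machinery that loads those peptides. The set held 8 genes: the heavy-chain genes H2-D1, H2-K1, H2-T23 and H2-M3, the light-chain gene B2m, and the peptide-loading genes Tap1, Tap2 and Tapbp. A probe set was taken where the platform annotation assigned it to exactly 1 of these genes, which gave 23 of 45037 probe sets and 7 of the 8 genes, against 18193 genes with such a probe set on the whole array. H2-T23 had 0 probe sets of its own and is given no value. The set was selected on the log2 values of its probe sets, with the spread of H2-D1 between lungs of the same genotype already known, so that spread is described here and not tested.

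Total RNA of microdissected lungs from E16.5 mouse embryos (embryonic day, counted from mating) was measured on Affymetrix expression arrays, 1 array per lung. The lungs were 3 Hopx -/- (Hopx-null) and 3 Hopx +/+ (wild-type), labelled as biological replicates. All 6 carry the label of a mixed strain background, and the labels give neither the targeted allele, the histocompatibility type nor the sex of any embryo. Hopx, a small homeodomain protein found in type I alveolar cells, read 10.64, 10.35 and 10.47 in Hopx-null lungs, against 12.50, 12.44 and 12.26 in wild-type lungs at one probe set, and 4.59 to 4.96 in Hopx-null lungs, against 10.41 to 10.96 in wild-type lungs at the other. All values are log2 values after the authors' normalization, on which 1 unit is a 2-fold difference. The 8 fetal lung markers tested (Nkx2-1, Sftpc, Foxf1 and others) all lay above the median of the arrays, with list means of 10.51 to 10.68 in Hopx-null and 10.56 to 10.65 in wild-type lungs. Correlations between arrays ran from 0.991 to 0.995 within a genotype.

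In the class I pathway, proteasomes cut proteins into peptides, the Tap1 and Tap2 transporter carries the peptides into the endoplasmic reticulum, and tapasin, the product of Tapbp, helps load them onto a heavy chain paired with beta-2 microglobulin, the product of B2m. H2-D1 and H2-K1 are classical heavy chains and are among the most variable genes between mouse strains, whereas H2-M3 and H2-T23 are non-classical heavy chains that vary less. H2-M3 presents N-formylated peptides and H2-T23 makes Qa-1, a ligand of inhibitory receptors on natural killer cells. All of these genes lie in the major histocompatibility complex of chromosome 17 except B2m, which lies on chromosome 2. Interferons raise the transcription of the pathway, partly through the transactivator Nlrc5. A probe designed from the sequence of one strain's H2-D1 can fail to bind the H2-D1 of another strain.

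The promoters of H2-D1, H2-K1, H2-M3 and B2m are shown because each held both motifs named below. RefSeq promoter sequences of build GRCm38.p6 were matched for 7 of the 8 genes, all but Tap2. Each stretch runs 5′ to 3′ on the gene's strand from 180 to 81 bases before the transcript start, and capitals mark matches on either strand to a kappaB-type motif (GGNNANTCC) or to an interferon-response core (TTTCANTT).
H2-D1, chr17:35262914-35263013, plus strand: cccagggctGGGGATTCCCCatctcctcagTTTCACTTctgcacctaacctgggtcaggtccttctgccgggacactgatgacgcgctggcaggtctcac
H2-K1, chr17:34000414-34000513, minus strand: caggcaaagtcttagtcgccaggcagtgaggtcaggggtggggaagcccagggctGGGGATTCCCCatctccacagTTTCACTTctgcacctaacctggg
H2-M3, chr17:37270054-37270153, plus strand: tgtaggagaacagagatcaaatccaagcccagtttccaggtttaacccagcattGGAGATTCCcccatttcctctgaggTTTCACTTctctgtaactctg
B2m, chr2:122147507-122147606, plus strand: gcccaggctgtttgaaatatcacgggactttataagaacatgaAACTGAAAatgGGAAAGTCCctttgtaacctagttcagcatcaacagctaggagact
The motif letters were chosen after these sequences had been read, so the matches are a description. In H2-D1 and H2-K1 the kappaB-type motif matched on both strands at overlapping positions, which is why a longer run is in capitals there. From that run to the end of the H2-K1 stretch, 44 of 45 bases were identical in H2-D1. Among all 32851 RefSeq promoters of 300 bases, 13% held the kappaB-type motif, 6.58% the interferon-response core and 0.673% both. Neither set of letters was found in the 300 bases of H2-T23, Tap1 or Tapbp.

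H2-D1 was read by 9 probe sets, and 3 of them divided the Hopx-null lungs. At probe set 1452544_x_at the values were 4.88, 11.08 and 11.49 in Hopx-null replicates 1 to 3, against 4.98, 4.58 and 4.79 in wild-type replicates 1 to 3. At 1427651_x_at they were 5.23, 10.68 and 11.19 in the Hopx-null lungs, against 5.45, 4.89 and 5.07 in the wild-type lungs. At 1425614_x_at they were 5.06, 9.76 and 9.87 in the Hopx-null lungs, against 5.20, 5.01 and 4.76 in the wild-type lungs. Hopx-null replicates 2 and 3 were therefore high at all 3 probe sets, while Hopx-null replicate 1 lay among the wild-type lungs, so the genotypes overlapped. The empty step between the high and the low lungs was 6.09, 5.23 and 4.56 log2 units at the 3 probe sets in that order. The low lungs, at 4.58 to 5.45, were under the arrays' median of 6.68 and a little above their lower quartile of 4.28, where signal is close to background, so the steps may understate the difference in signal. No expression ratio is given, because the binding of these probes to the transcripts of each lung is not known.

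The other 6 H2-D1 probe sets showed no such division. At 1425545_x_at the values were 11.36, 11.12 and 10.92 in the Hopx-null lungs, against 11.65, 11.21 and 11.44 in the wild-type lungs. At 1451784_x_at they were 10.94, 10.67 and 10.48 in the Hopx-null lungs, against 11.25, 10.87 and 11.10 in the wild-type lungs. Here Hopx-null replicates 2 and 3 were the lowest of the 6 lungs, the opposite order to the dividing probe sets. At 1451683_x_at, with 7.22, 6.92 and 6.86 in the Hopx-null lungs, against 7.37, 7.21 and 7.37 in the wild-type lungs, the same lungs were again lowest. At 1426324_at, with 8.57, 8.65 and 8.81 in the Hopx-null lungs, against 9.21, 8.40 and 8.95 in the wild-type lungs, the lowest lung was wild-type replicate 2. The remaining probe sets, 1450170_x_at and 1451934_at, were dim, at 4.63 to 4.79 and 2.82 to 2.92 in Hopx-null lungs, against 4.72 to 4.93 and 2.63 to 3.02 in wild-type lungs. The widest range within a genotype over these 6 probe sets lay between 0.21 and 0.81. Suffix x_at marks a probe set whose probes can also match other transcripts, and it was carried by 3 of the 3 dividing and 4 of the 6 other probe sets, so related class I transcripts may add to either kind.

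**Figure D1:**
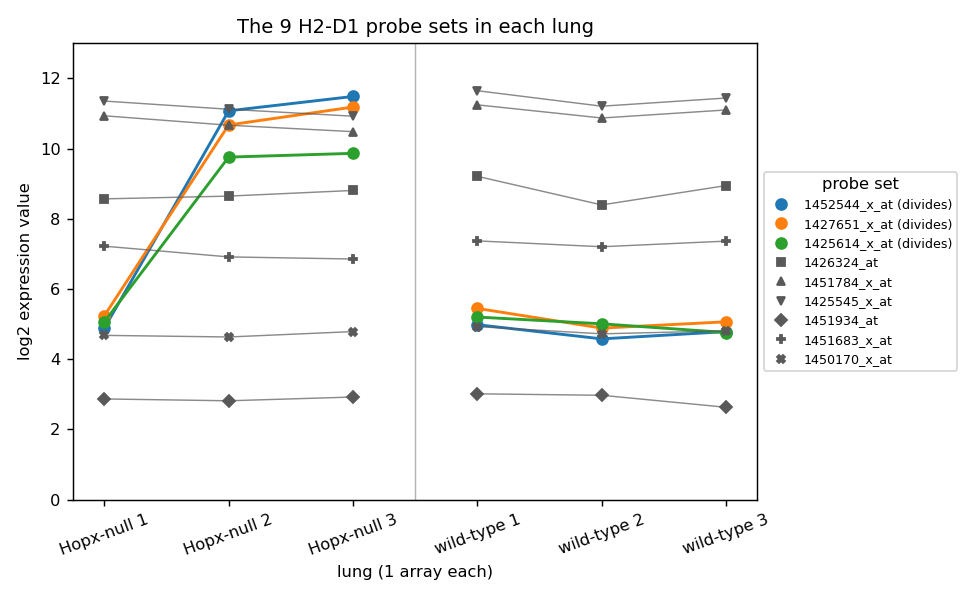
Log2 expression value (y axis) of each of the 9 H2-D1 probe sets in each of the 6 lungs (x axis, 1 array each, Hopx-null left). Coloured circles are the 3 probe sets that divide the Hopx-null lungs, with Hopx-null 2 and 3 between 9.76 and 11.49 and the other 4 lungs between 4.58 and 5.45, and grey symbols are the 6 that do not, with lines joining lungs of 1 genotype only.

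Over all members, 3 of 23 probe sets had a range of 1 or more within at least 1 genotype, against 5.57% of all probe sets. All 3 were those of H2-D1. With a range of 2 or more the members' count was again 3, against 0.742% of all probe sets, and with 0.5 or more it was 8, or 34.8%, against 29.7%. The threshold of 1 lay in a wide gap: the narrowest range just inside it was 4.81 (1425614_x_at) and the widest just outside was 0.88 (Tap1, 1416016_at). Since the genes were chosen with this spread in view, these shares describe the set and test nothing. Of 5 probe sets assigned to a member together with other genes, 1 showed the same division, with 3.20, 5.57 and 5.33 in the Hopx-null lungs, against 3.29, 3.45 and 3.40 in the wild-type lungs. That probe set, 1451593_at, was assigned to H2-Q5 and H2-K1 together, so it names no single gene.

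The same division was then sought across the array. The 6 values of each probe set were put in order, and the widest empty step between neighbours set the boundary between high and low lungs. A step of 1 or more was found at 545 probe sets, 1.21% of all, and at 40 of these (0.0888% of all probe sets) the boundary set Hopx-null replicates 2 and 3 apart from the other 4 lungs, in either direction. Of the 40, 28 had 1 named gene with a place on a chromosome, and 16 of those 28 (57.1%) were on chromosome 17. Without the 3 H2-D1 probe sets, chromosome 17 held 13 of 25, or 52.0%. Chromosome 17 held 4.31% of all placed probe sets and 31 of the 400 placed probe sets (7.75%) with a step of 1 or more. Chromosome 7 followed with 3 of the 28, and 12 chromosomes and the X and Y held 0.

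**Figure D2:**
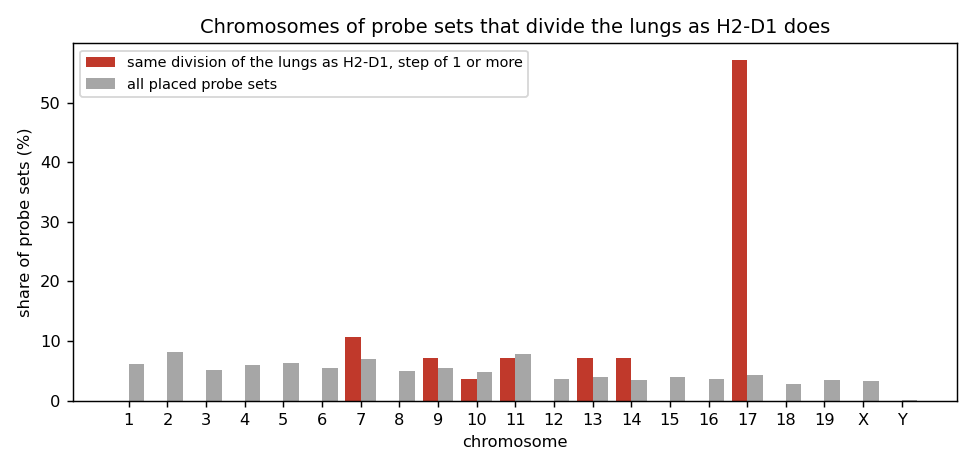
Share of probe sets on each chromosome (y axis, percent; x axis, chromosome). Red bars show the 28 placed probe sets that divide the lungs as H2-D1 does with a step of 1 or more, of which 57.1% lie on chromosome 17, and grey bars show all 34731 placed probe sets, of which 4.31% lie there.

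The 16 probe sets on chromosome 17 belonged to 12 genes, named here after their values had been seen, at 6 probe sets higher and at 10 lower in Hopx-null replicates 2 and 3. Those higher were 3 of H2-D1, 2 of H2-Ea and 1 of Msh5, and all 3 genes lie inside the histocompatibility complex. H2-Ea encodes the alpha chain of the class II molecule I-E, and several inbred strains, C57BL/6 among them, carry a deletion that abolishes its expression. At H2-Ea probe set 1422892_s_at the values were 2.94, 5.52 and 6.18 in the Hopx-null lungs, against 2.80, 2.66 and 3.25 in the wild-type lungs. The second H2-Ea probe set, 1422891_at, read 4.43, 5.51 and 5.93 in the Hopx-null lungs, against 4.04, 4.29 and 3.95 in the wild-type lungs. Msh5, a mismatch-repair homologue needed for meiotic recombination, read 5.48, 7.53 and 7.61 in the Hopx-null lungs, against 4.66, 5.20 and 5.15 in the wild-type lungs at 1430771_a_at. Thus Hopx-null replicate 1 again lay with or near the wild-type lungs at each of these genes.

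Those lower in Hopx-null replicates 2 and 3 were zinc-finger genes (Zfp994, Zfp758, Zfp945 and Zfp40), the lipid transporter gene Abca3, the nuclease genes Dnase1l2 and Eme2, the kinase gene Sik1 and the molybdenum cofactor gene Mocs1. Zfp945 had the widest step among them, with 9.24, 4.94 and 5.21 in the Hopx-null lungs, against 9.40, 10.09 and 9.08 in the wild-type lungs at 1437128_a_at. Eme2 read 7.13, 4.30 and 4.41 in the Hopx-null lungs, against 6.94, 7.96 and 7.12 in the wild-type lungs. By the order of the 834 measured genes of chromosome 17, the first of the 12 was Zfp994, the 95th, and the last was Mocs1, the 608th. The members lay between them: Tapbp was gene 366, H2-K1 gene 374, Tap1 gene 385, Tap2 gene 387, H2-D1 gene 447 and H2-M3 gene 496. Over the 131 measured genes from Tapbp to H2-M3, 3 genes had the division, against 12 of the 834 on the whole chromosome. H2-D1, from which the division was defined, was among the 3.

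**Figure D3:**
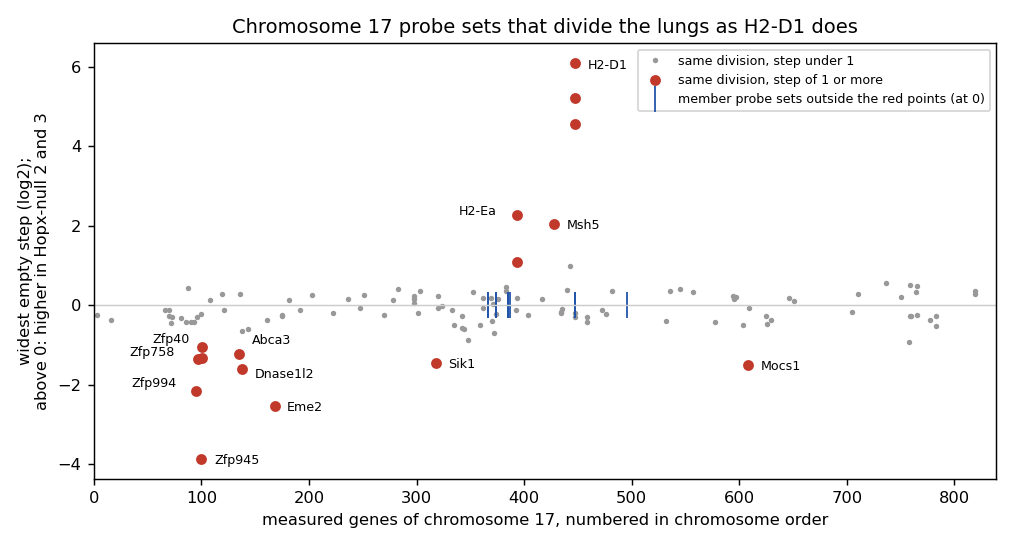
Chromosome 17 probe sets whose widest empty step sets Hopx-null 2 and 3 apart from the other lungs. The x axis numbers the 834 measured genes in chromosome order, the y axis gives the step in log2 units, above 0 where Hopx-null 2 and 3 are the high lungs and below 0 where they are the low ones. Red points are the 16 probe sets with a step of 1 or more, grey points have smaller steps, and blue ticks mark the members' other probe sets, drawn at 0.

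As at H2-D1, the division was not shared by every probe set of a gene. Of the 12 genes, 10 had more than 1 probe set, and each of these 10 had at least 1 probe set without the division. Together they had 33 probe sets, of which 14 divided the lungs. Away from chromosome 17 the division appeared at 10 named genes, among them the ribosomal protein gene Rps9, Paip1, Nxpe4 and the embryonic globin genes Hbb-y and Hba-x. Embryonic globin Hba-x read 4.63, 6.85 and 7.01 in the Hopx-null lungs, against 4.92, 5.66 and 5.84 in the wild-type lungs. The B cell marker list (3 of 4 genes measured, 2 of them under the arrays' median) had means of 6.47, 7.04 and 7.10 in the Hopx-null lungs, against 6.80, 6.36 and 6.01 in the wild-type lungs. The part of strain sequence, embryonic red cells or B cells in the division was not tested.

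To find the genes most like H2-D1 at 1452544_x_at, each of the 2631 probe sets with 1 gene and a range of 1 or more over the 6 lungs was scaled to run from 0 to 1, and the largest difference of any lung from the scaled H2-D1 profile was taken, with the profile as it stood or turned upside down, whichever was closer. The other dividing H2-D1 probe sets differed by at most 0.031 and 0.048. The 10 closest other genes were Rps9, the striatin gene Strn, the Integrator subunit gene Ints6, the lymphotoxin gene Lta, H2-Ea, Cux1, A930033H14Rik, Zfp945, the cystatin gene Cst9 and the trafficking gene Vps52, with largest differences from 0.067 for Rps9 to 0.19 for Vps52. Lta, H2-Ea and A930033H14Rik matched as they stood, with Hopx-null replicates 2 and 3 high, and the other 7 matched when turned, with those lungs low. Of these 10, 5 lie on chromosome 17 (Strn, Lta, H2-Ea, Zfp945 and Vps52). Lta, a cytokine gene of the histocompatibility complex, was high in the same lungs, at 3.989, 4.996 and 5.013 in the Hopx-null lungs, against 3.852, 3.811 and 4.001 in the wild-type lungs. Rps9 at 1434624_x_at was one of the 7 with those lungs low, at 12.48, 8.08 and 7.99 in the Hopx-null lungs, against 12.48, 12.59 and 12.93 in the wild-type lungs.

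H2-K1, the second classical heavy chain, had 4 probe sets of its own, and none of them divided the lungs. The probe set that H2-K1 shares with H2-Q5 did, as given above. At 1451931_x_at the values were 11.26, 10.93 and 10.83 in the Hopx-null lungs, against 11.55, 11.16 and 11.35 in the wild-type lungs. At 1425336_x_at they were 9.80, 9.76 and 9.71 in the Hopx-null lungs, against 10.34, 9.80 and 10.10 in the wild-type lungs. Wild-type replicates 1 and 3 were highest at both, and the genotypes overlapped through wild-type replicate 2. At 1427746_x_at, with 8.26, 8.83 and 8.59 in the Hopx-null lungs, against 8.83, 8.22 and 8.48 in the wild-type lungs, the order differed, with Hopx-null replicates 2 and 3 above replicate 1. The fourth, 1450534_x_at, was dim, at 3.70 to 3.94 in Hopx-null lungs, against 3.88 to 4.12 in wild-type lungs. H2-M3 had a single probe set, with 6.43, 6.85 and 6.92 in the Hopx-null lungs, against 6.73, 6.08 and 6.37 in the wild-type lungs. Its Hopx-null replicates 2 and 3 were the highest of the 6 lungs. The widest step, 0.30, lay between Hopx-null replicate 1 and wild-type replicate 1, so it did not set those highest lungs apart.

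B2m, the light chain shared by all these heavy chains, had ranges within a genotype of 0.09 to 0.31 at its 2 probe sets. At 1449289_a_at it read 12.77, 12.78 and 12.64 in the Hopx-null lungs, against 12.93, 12.72 and 12.97 in the wild-type lungs. At 1452428_a_at it read 12.17, 12.22 and 12.12 in the Hopx-null lungs, against 12.35, 12.05 and 12.32 in the wild-type lungs. Wild-type replicates 1 and 3 were again highest at both probe sets, with wild-type replicate 2 the lowest of the wild-type lungs.

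Among the peptide-loading genes, Tap1 at 1416016_at read 8.44, 8.26 and 8.19 in the Hopx-null lungs, against 8.85, 7.97 and 8.78 in the wild-type lungs. Its wild-type lungs spread more than its Hopx-null lungs, with ranges of 0.25 in Hopx-null and 0.88 in wild-type lungs. The other 3 Tap1 probe sets were under the arrays' median in every lung, at 2.34 to 5.77 in Hopx-null lungs, against 2.38 to 5.91 in wild-type lungs. Tap2 read 7.17, 7.46 and 7.46 in the Hopx-null lungs, against 7.40, 7.23 and 7.30 in the wild-type lungs. Tapbp at 1421812_at read 12.38, 12.44 and 12.46 in the Hopx-null lungs, against 12.47, 12.39 and 12.49 in the wild-type lungs, the narrowest spread of any member. A second Tapbp probe set lay at 6.25 to 6.38 in Hopx-null lungs, against 6.23 to 6.39 in wild-type lungs. At Tap2 and Tapbp no empty step between ordered lungs exceeded 0.12.

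Across the 12 non-dividing member probe sets above the arrays' median, wild-type replicates 1 and 3 were the 2 highest of the 6 lungs at 10, and wild-type replicate 2 was the lowest wild-type lung at all 12. Over all 23 member probe sets, wild-type replicates 1 and 3 were the 2 highest at 13 (56.5%), against 8.78% of all probe sets, and wild-type replicate 2 was the lowest wild-type lung at 21 (91.3%), against 34.4% of all probe sets. These patterns were chosen after the values had been seen, and several probe sets read the same gene or near-identical genes, so they are not separate observations. In lungs taken whole, fewer cells of a type and less RNA per cell cannot be told apart.

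**Figure D4:**
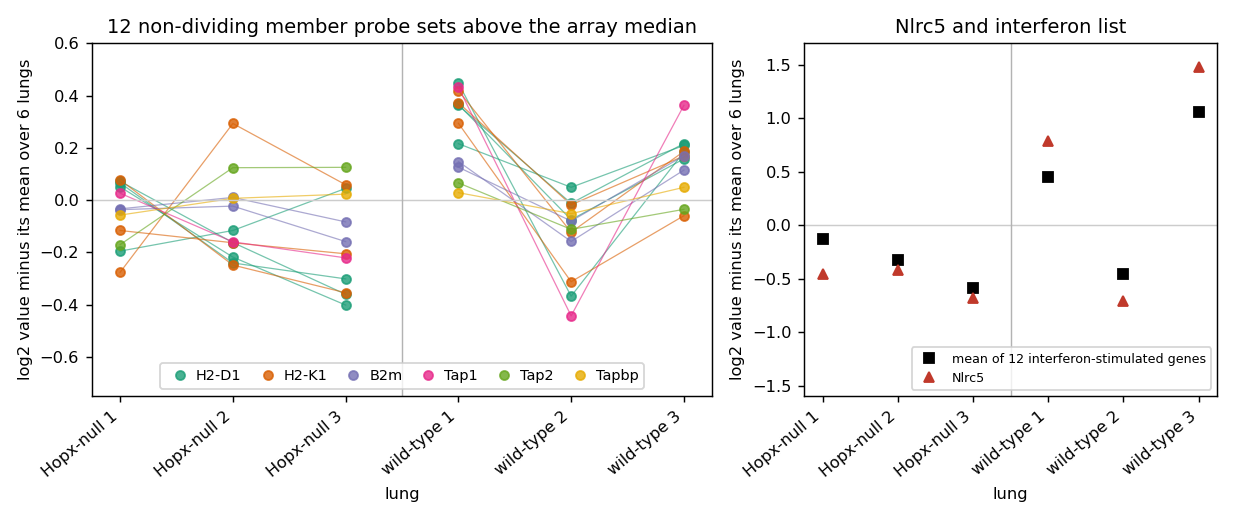
Left, log2 value minus its mean over the 6 lungs (y axis) in each lung (x axis, Hopx-null left) for the 12 non-dividing member probe sets above the arrays' median, coloured by gene, with lines joining lungs of 1 genotype. Right, the same for Nlrc5 and for the mean of 12 interferon-stimulated genes, on a wider y axis. Wild-type 1 and 3 are the 2 highest lungs at 10 of the 12 probe sets and in both series on the right.

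Nlrc5 and the interferon-stimulated genes were high in the same lungs. Nlrc5, the class I transactivator, read 5.42, 5.46 and 5.19 in the Hopx-null lungs, against 6.67, 5.17 and 7.36 in the wild-type lungs. Its range was 0.27 in Hopx-null and 2.19 in wild-type lungs, the widest among the 23 measured of 26 other antigen-processing genes. Wild-type replicates 1 and 3 were the 2 highest lungs at 5 of these 23 genes, against 8.78% of all probe sets. The same lungs were the 2 highest at 0 of 9 other class I genes and at 1 of 10 class II genes. The immunoproteasome gene Psmb8, named after its values were seen, read 8.69, 8.51 and 8.37 in the Hopx-null lungs, against 8.84, 8.20 and 8.80 in the wild-type lungs. The 12 measured of 15 interferon-stimulated genes had list means of 8.09, 7.89 and 7.63 in the Hopx-null lungs, against 8.67, 7.76 and 9.28 in the wild-type lungs, and wild-type replicates 1 and 3 were the 2 highest lungs at 10 of the 12. Nlrc5 and the interferon list thus had wild-type replicate 3 highest, whereas wild-type replicate 1 was the highest lung at 9 of the 12 member probe sets.

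Markers of other cells were set beside this order. The 5 pan-leukocyte markers, all above the arrays' median, had list means of 10.67, 10.79 and 10.79 in the Hopx-null lungs, against 10.78, 10.54 and 10.75 in the wild-type lungs. For the 6 macrophage markers they were 9.87, 9.89 and 10.06 in the Hopx-null lungs, against 9.88, 9.78 and 9.92 in the wild-type lungs. For the 4 dendritic markers, 2 of them under the median, they were 6.15, 6.16 and 6.15 in the Hopx-null lungs, against 6.09, 5.94 and 5.91 in the wild-type lungs. The 5 measured of 6 T and natural killer cell markers, all under the median, had means of 5.49, 5.47 and 5.12 in the Hopx-null lungs, against 5.65, 5.48 and 5.96 in the wild-type lungs. The 7 thymus markers, all with means under the median, had list means of 4.65 to 5.06 in Hopx-null and 4.71 to 5.13 in wild-type lungs. Of the 7, 2 had a range of 1 or more within a genotype. Rag1 read 6.35, 6.05 and 4.65 in the Hopx-null lungs, against 5.15, 6.76 and 6.36 in the wild-type lungs. Cd8a read 6.50, 6.30 and 5.09 in the Hopx-null lungs, against 5.19, 6.23 and 6.52 in the wild-type lungs. Endothelial markers, 6 of 6 above the median, ran from 11.21 to 11.33 in Hopx-null and from 11.10 to 11.23 in wild-type lungs. Wild-type replicate 2 was thus lowest for the pan-leukocyte and macrophage list means, whereas wild-type replicate 3 was lowest for the dendritic list mean. Wild-type replicates 1 and 3 were not the highest lungs for any of these list means. Within the pan-leukocyte list, wild-type replicate 2 was lowest at Cd52, Laptm5, Coro1a and Cd53. Ptprc was lowest in wild-type replicate 3, at 9.46, against 9.60 in wild-type replicate 2. Of the T and natural killer cell markers, Gzma and Nkg7 had wild-type replicates 1 and 3 as the highest lungs, whereas Cd3e, Cd3g and Cd2 did not. Gzma, a cytotoxic granule enzyme, read 5.82, 5.51 and 5.36 in the Hopx-null lungs, against 6.82, 5.64 and 7.27 in the wild-type lungs, and the T cell receptor component Cd3g read 4.64, 4.67 and 4.07 in the Hopx-null lungs, against 4.43, 4.51 and 5.02 in the wild-type lungs. Y-linked Eif2s3y read 2.88 to 3.05 in Hopx-null lungs, against 3.13, 11.72 and 11.56 in the wild-type lungs. X-linked Xist read 12.48 to 12.68 in Hopx-null lungs, against 12.22, 6.43 and 5.84 in the wild-type lungs. By these transcripts wild-type replicates 2 and 3 were male and the other lungs female, so sex was not balanced between the genotypes. The part of leukocytes, interferon response or sex in the members' values was not tested.

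The comparison of Hopx-null with wild-type lungs addresses what the absence of Hopx changes in gene expression of the lung before birth. Only the wild-type group held male lungs by the sex-linked transcripts above, so genotype and sex cannot be fully told apart in this comparison. No member probe set passed: 0 of 23 were called by limma (eBayes, Benjamini-Hochberg over all probe sets), against 0.00444% of all probe sets, which were the 2 of Hopx. The smallest adjusted p of a member was 0.878 in limma. At an unadjusted p under 0.05 there were 5 member probe sets (21.7%), 3 dividing ones of H2-D1 and 2 non-dividing ones of H2-D1 with the opposite sign, against 4.77% of all probe sets. All 5 read the same gene, and the 3 dividing ones were selected with their spread known. This share therefore describes the set and tests nothing. The genotypes were free of overlap at 0 of the 23, against 10.1% of all probe sets.

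For the 3 dividing H2-D1 probe sets the log2 differences, Hopx-null minus wild-type, were 4.36 (SE 1.65), 3.90 (SE 1.48) and 3.24 (SE 1.23), and their group means describe no single lung. Group means at 1452544_x_at were 9.15 ± 3.70 in Hopx-null and 4.78 ± 0.20 in wild-type lungs (SD, n = 3 each). Without Hopx-null replicate 1 these 3 probe sets passed limma's threshold (eBayes, Benjamini-Hochberg), with differences of 6.50, 5.80 and 4.82. That pass is fixed by the choice of these probe sets, which were known to set this lung apart, and supports no difference between the genotypes. With any other lung left out the smallest adjusted p of these 3 was 0.730 (limma, Benjamini-Hochberg).

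The other 20 member probe sets had log2 differences from -0.38 (H2-D1, 1451784_x_at, SE 0.15) to 0.34 (H2-M3, SE 0.20). Of them 15 were below 0 and 5 above, while 48.6% of all probe sets were below 0. Several of these probe sets read the same gene, so their signs are not separate observations. With the brightest probe set of each of the 7 measured member genes, 5 differences were below 0 and 2 above. For H2-K1 the brighter probe sets gave -0.35 (95% interval -0.71 to 0.01) at 1451931_x_at and -0.32 (95% interval -0.67 to 0.02) at 1425336_x_at, and 1427746_x_at gave 0.05. Those of B2m gave -0.14 (95% interval -0.39 to 0.10) and -0.07 (95% interval -0.33 to 0.19). Tap1 differed by -0.24 (95% interval -0.80 to 0.33), Tap2 by 0.05 (95% interval -0.22 to 0.32) and Tapbp by -0.02 (95% interval -0.21 to 0.18). The median over the 23 was -0.12, and over all probe sets it was 0.01. The members' median became -0.01 without wild-type replicate 1, the lung that was highest at 9 of the 12 brighter non-dividing probe sets.

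**Figure D5:**
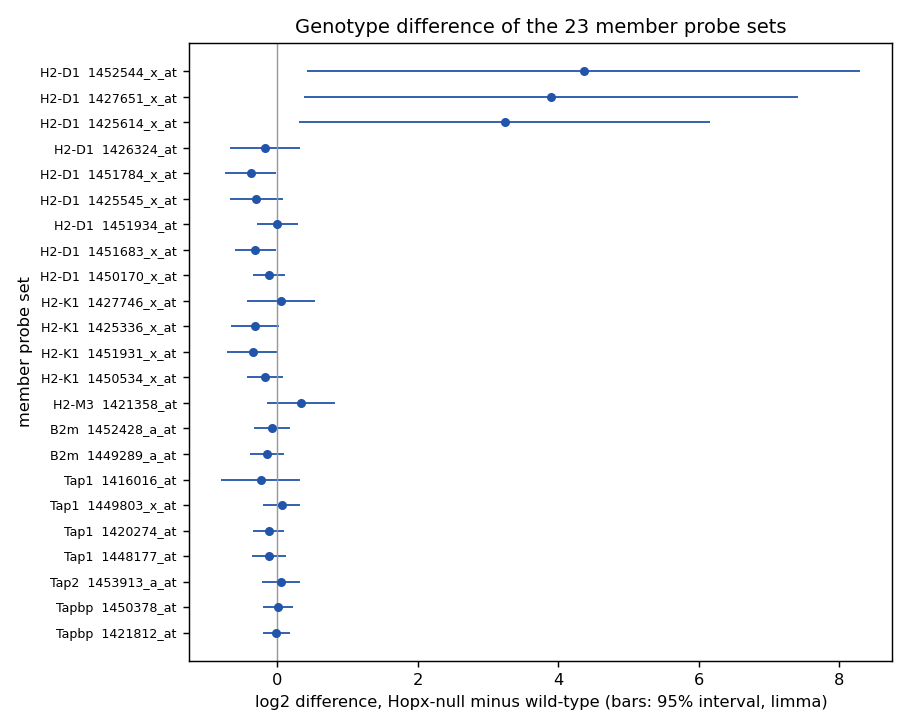
Log2 difference, Hopx-null minus wild-type (x axis), with its 95% interval from limma (bars) for each of the 23 member probe sets (y axis, gene and probe set). The 3 dividing H2-D1 probe sets stand at 3.24 to 4.36 with wide intervals, and the other 20 lie between -0.38 and 0.34.

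The other genes of the pathway were described from lists, using the brightest probe set of each gene. Of the other class I genes 9 of 21 were measured, with 0 called higher and 0 lower, 6 differences above and 3 below 0, and a median of 0.05. The widest ranges within a genotype were those of H2-Q10, with 6.29, 4.99 and 5.72 in the Hopx-null lungs, against 6.71, 6.06 and 6.15 in the wild-type lungs, and of H2-Q2, with 4.26, 3.49 and 3.17 in the Hopx-null lungs, against 4.42, 3.86 and 3.47 in the wild-type lungs. Of the other antigen-processing genes 23 of 26 were measured, with 0 called in either direction, 12 above and 11 below 0, and a median of 0.00. Besides Nlrc5, only Rfxank, a subunit of the RFX factor that binds class I and class II promoters, had a range of 1 or more, with 7.30, 7.82 and 8.34 in the Hopx-null lungs, against 7.28, 8.61 and 8.84 in the wild-type lungs. At Rfxank wild-type replicates 2 and 3 were the highest lungs, unlike at the members.

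Class II genes, whose products present peptides to helper T cells, were measured for 10 of 11, with 0 called in either direction, 3 above and 7 below 0, and a median of -0.05. Ranges of 1 or more were found for H2-Aa, H2-Ab1, H2-Eb1 and the invariant chain gene Cd74. H2-Aa read 9.19, 8.96 and 9.36 in the Hopx-null lungs, against 9.70, 8.23 and 9.20 in the wild-type lungs, with wild-type replicate 1 highest and wild-type replicate 2 lowest. H2-Eb1, the beta chain partner of H2-Ea, read 7.81, 7.35 and 7.77 in the Hopx-null lungs, against 8.50, 7.33 and 7.88 in the wild-type lungs. H2-Eb1 did not set apart Hopx-null replicates 2 and 3, where the probe sets of H2-Ea were high.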

How the data were processed

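The authors deposited 1 table of log2 values, a column per array and 45101 probe sets. The submitters' processing notes list RMA and Partek 6.6, without saying which did what, and the log2 base was read from the values' range. RMA equalises array distributions, so a shift of most transcripts would not show. After 64 control probe sets were left out, 45037 were tested without a filter. Hopx-null minus wild-type differences were fitted in R 4.3.3 by limma 3.58.1 (lmFit and eBayes, Benjamini-Hochberg over all probe sets, threshold 0.05), a procedure also tested on simulated data. The annotation gave 1 gene for 34945 probe sets, several for 932 and none for 9160. Chromosomes and gene order came from a RefSeq table of GRCm38.p6, matched by gene identifier. All 23 member probe sets were named. Of other pathway lists, genes with a range of 1 or more or the widest range within a genotype were named, up to 4 per list. The 10 genes most like H2-D1 were named as well. Psmb8 and the single genes of the marker lists were named without that rule. Members and lists were chosen with earlier results of these data known. The number of arrays limits precision: with 3 lungs a group, the smallest two-sided p of an exact permutation test is 0.1. The labels do not say whether litters were shared.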

Additional observations from a re-analysis of the deposited data

How the results depend on the processing

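The counts of called probe sets (2 of all, 0 of the members) were the same with repeated quantile normalization, with only probe sets above the median, with trend and robust options and with array weights. With the replicate number as a block, 1 probe set of all passed and 0 members, and the members' median stayed at -0.12. Deviations of same-numbered lungs from their genotype means correlated at -0.0958, -0.121 and 0.183. These 3 values cannot decide whether same-numbered lungs shared a litter or were processed together, which the labels do not give. Leaving out 1 lung at a time, called probe sets ran from 1 to 23 (limma, Benjamini-Hochberg, the highest without wild-type replicate 1), called members from 0 to 3 (the highest without Hopx-null replicate 1, the lung these 3 H2-D1 probe sets were known to set apart, so the count is no evidence of a genotype difference), dividing member probe sets from 0 (without Hopx-null replicate 1) to 3, and the members' median from -0.167 to -0.0138 (without wild-type replicates 2 and 1 in that order). A range of 0.5 or more gave 8 dividing member probe sets, a range of 2 or more gave 3, and with only probe sets above the median there were 2. The members' median was -0.112 after repeated normalization, -0.161 above the median, -0.145 with 1 probe set per gene and, in an alternative chosen after seeing the data, -0.121 without the dividing probe sets. Signal near background limits the dim probe sets: 9 of the 23 had a mean under the arrays' median.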
